A study of Mus musculus with 2 samples.

Results

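Ephrins and Eph receptors were followed across the cell types of the mouse colon. The set was 10 listed genes, the ligands Efna1, Efna2, Efna5, Efnb1 and Efnb2 and the receptors Epha2, Epha4, Ephb2, Ephb3 and Ephb4, and all 10 were among the 17809 genes of the wild-type table and the 15972 genes of the reporter table. The wild-type library held colon cells of C57BL/6 mice, an EpCAM-positive CD45-negative sort mixed 1 to 1 with an EpCAM-negative CD45-negative sort, prepared with kit version 3. The reporter library, prepared with kit version 2, came from the Pdgfra-H2B-eGFP strain, in which nuclear GFP is driven from the Pdgfra locus, and held mesenchymal cells sorted for GFP. Each library pooled 3 female mice of 8 to 12 weeks and loaded 16000 cells. The tables do not tie cells to mice, so each library was 1 sample, no comparison had a replicate and no test was possible. Every difference below describes these libraries, and every interval covers counting error only.

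Eph receptors are receptor tyrosine kinases, and their ephrin ligands sit on the membrane of neighbouring cells, so signalling needs cell contact and can run into both cells. Ephrin-A ligands are held by a lipid anchor and mainly bind EphA receptors, while ephrin-B ligands span the membrane and mainly bind EphB receptors, with EphA4 able to bind both kinds. In the intestine EphB2 and EphB3 are known for their place at the crypt base, where they keep cells in position against ephrin-B on the cells above. In blood vessels ephrin-B2 is known as an arterial gene and EphB4 as a venous gene.

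Levels are means over the cells of a class of the corrected count, a depth-adjusted count set by the authors' SCTransform step. The wild-type library held 7495 cells (summed values of 6120 to 16389 per cell) and the reporter library 4409 cells (2314 to 4432), so levels were compared within a library and not between them. Classes were named from marker genes after clustering without the Eph and ephrin genes. CTFs and CBFs are the crypt top and crypt bottom fibroblasts of the study. The wild-type library gave 2380 epithelial cells, of which 471 were stem-like, 211 transit-amplifying-like, 542 enterocyte-like, 592 goblet-like and 84 enteroendocrine-like, while clusters of 378 and 102 cells took no name. The stroma gave 1137 CBFs1-like, 561 CBFs2-like and 797 CTFs-like fibroblasts, 949 smooth muscle-like, 118 pericyte-like, 592 blood endothelial-like, 139 lymphatic endothelial-like, 78 glia-like and 40 immune-like cells. The reporter library gave 2639 CBFs1-like, 850 CBFs2-like and 755 CTFs-like cells, with 113 immune-like and 52 epithelial cells. Of its CBFs1-like cells, 1115 lay in a cluster led by Sbno2 and 532 in one led by Spock3, described further on. The epithelial marker list, summed, reached 142.5 in wild-type epithelial cells and 3.68 in the fibroblasts, or 2.58% of the epithelial level. That percentage serves as the yardstick for RNA of other cells in a class. The fibroblast list in epithelial cells was at 0.215% of its fibroblast level.

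**Figure D1:**
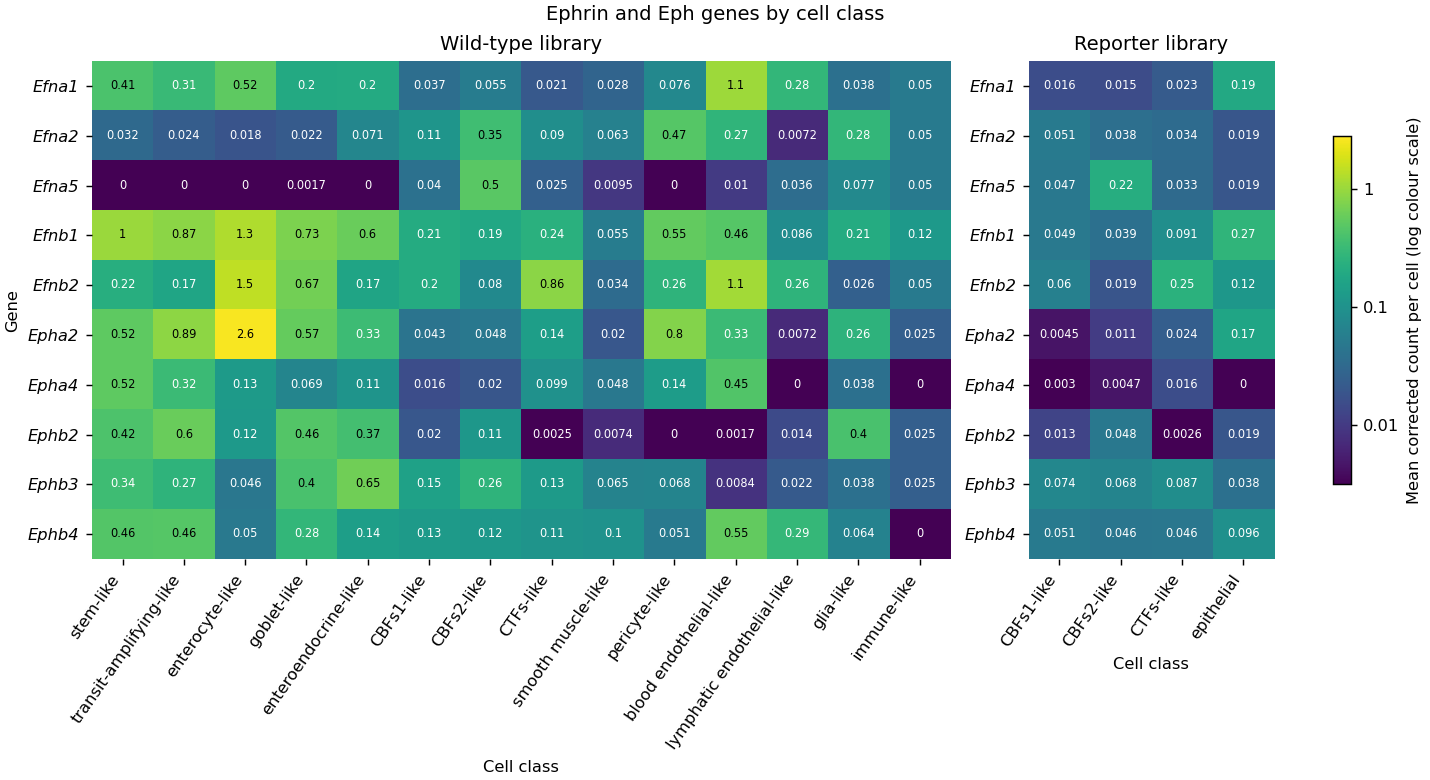
Mean corrected count per cell of the 10 genes (rows) in the named classes (columns) of the wild-type and reporter libraries. The immune-like class of the reporter library is left out. Means are printed in each cell and coloured on a log scale. Epha2 (2.64), Efnb2 (1.48) and Efnb1 (1.26) were highest in enterocyte-like cells, Efna1 (1.05) and Ephb4 (0.554) in blood endothelial-like cells and Efna5 (0.497) in CBFs2-like fibroblasts.

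The question along the crypt was where receptors and ligands lie relative to each other. EphB receptors and Epha4 were high at the base and low toward the top, and Efnb2 and Epha2 ran the other way. Ephb2, the receptor of ephrin-B ligands best known from crypts, averaged 0.425 in stem-like, 0.602 in transit-amplifying-like and 0.124 in enterocyte-like cells. Ephb3, its close relative, averaged 0.342, 0.265 and 0.0461 in the same order. Ephb4, the receptor that prefers ephrin-B2, averaged 0.461, 0.464 and 0.0498. Epha4, which binds ephrins of both classes, averaged 0.518, 0.322 and 0.129. All 4 receptors were thus lower in enterocyte-like cells than in either class of the crypt base. The stem-like class passed 6 of 8 stem markers, with Mcm6 and Mcm3 among its leading genes. At a higher clustering resolution 344 cells took that name. No order between stem and dividing cells is therefore read from these means.

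The ligand Efnb2 averaged 0.223 in stem-like, 0.171 in transit-amplifying-like and 1.48 in enterocyte-like cells. Epha2, a receptor of ephrin-A ligands found on many epithelia, averaged 0.518, 0.891 and 2.64. Efnb1, the other ephrin-B ligand of the set, varied less, at 1.01, 0.872 and 1.26. Efna1, a ligand of Epha2, averaged 0.410, 0.313 and 0.522. Efna2 stayed at or below 0.0318 in these 3 classes, and Efna5 was above 0 in none of the 471 stem-like, 211 transit-amplifying-like and 542 enterocyte-like cells, which leaves upper limits of 0.780%, 1.73% and 0.678% for the share of cells with a value (Clopper-Pearson 95%).

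Between the 542 enterocyte-like cells and the 682 crypt base cells (stem-like and transit-amplifying-like), 9 of the 10 genes reached a summed value of 20, the minimum for a comparison. Of these, 2 were higher and 4 lower in enterocyte-like cells by 2-fold or more. Over all 12194 genes compared, 11.9% were higher and 35.3% lower by that much, and the median log2 ratio was -0.67 for the 9 genes and -0.55 for all genes. Efnb2 was higher by 2.84 on the log2 scale (counting interval 2.58 to 3.11) and Epha2 by 2.06 (1.90 to 2.22). The log2 ratio was -3.21 for Ephb4 (-3.84 to -2.64), -2.79 for Ephb3 (-3.45 to -2.19), -1.96 for Ephb2 (-2.36 to -1.57) and -1.82 for Epha4 (-2.22 to -1.45). Efna1 (0.46), Efnb1 (0.37) and Efna2 (-0.67, from 10 against 20 summed counts) lay inside 2-fold. Enterocyte-like cells had the higher mitochondrial share, with a median of 12.4% against 9.34% in crypt base cells. Among cells at or below 10%, 100 enterocyte-like and 411 crypt base cells, Ephb2 (-0.83) and Epha4 (-0.32) no longer reached 2-fold, while Ephb3 (-3.70), Ephb4 (-3.36), Efnb2 (2.35) and Epha2 (2.17) did.

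The 4 receptors that were lower at the crypt top and the 2 genes that were higher are shown with a stretch of promoter each, from RefSeq on GRCm38.p6, as the place where a shared sequence would be looked for. All 10 genes matched the promoter table, with 11 start sites. The letters CTTTGA, a core of TCF/LEF sites and the end point of Wnt signalling, were searched on both strands of the 250 bases before each start. They stood before 1 of the 10 genes, Epha2, and before 13.8% of the 32851 promoters of the table. The stretches are the 60 bases directly before the start, on the strand of the gene, by the start of the RefSeq table, which can differ from the gene borders of GENCODE given further on. For Ephb3 the stretch runs past the GENCODE start at 21204755. For Epha2 the stretch is the 60 bases around the match, which is in capitals. No match says only that these letters are not in this window.
Ephb2, chr4:136836013-136836072, minus strand: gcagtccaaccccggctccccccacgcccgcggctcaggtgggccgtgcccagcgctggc
Ephb3, chr16:21204735-21204794, plus strand: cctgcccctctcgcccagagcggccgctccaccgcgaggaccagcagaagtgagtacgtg
Ephb4, chr5:137350049-137350108, plus strand: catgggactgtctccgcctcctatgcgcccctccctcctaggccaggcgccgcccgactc
Epha4, chr1:77515089-77515148, minus strand: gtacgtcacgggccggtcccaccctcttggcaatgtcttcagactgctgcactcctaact
Efnb2, chr8:8661243-8661302, minus strand: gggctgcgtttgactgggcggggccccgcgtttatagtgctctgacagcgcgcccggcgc
Epha2, chr4:141300985-141301044, plus strand: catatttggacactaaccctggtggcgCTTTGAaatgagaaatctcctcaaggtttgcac
The 250 bases before the starts of the set had a GC content of 55.6% to 74.8%, against a median of 52.4% over all promoters.

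The same genes were placed on a continuous axis without class borders. The 1704 epithelial cells outside the goblet-like and enteroendocrine-like classes were ordered by a score, the mean log value of 12 crypt top genes minus that of 12 crypt base genes, none of them an ephrin or Eph gene, and cut into 5 equal bins of 341 or 340 cells. Lgr5, the stem cell marker, averaged 1.10 in the first bin and 0.00294 in the last, and Krt20, a marker of the surface epithelium, 0.00587 and 11.3. Both are genes of the score, so these values follow from the ordering. The first bin held 236 stem-like and 71 transit-amplifying-like cells, and the last 312 enterocyte-like cells. Many genes of the score also named the stem-like and enterocyte-like classes, so the axis and the classes are not independent views.

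Ephb3 fell fastest, with values above 0 in 42.8% of cells in the first bin, 18.5% in the second, 9.38% in the third, 4.11% in the fourth and 4.71% in the fifth. Ephb2 was flatter near the base, at 42.2%, 39.3%, 28.4%, 17.6% and 3.53%. The intervals of Ephb2 (34.1 to 44.7%) and Ephb3 (14.5 to 23.0%) did not overlap in the second bin. Ephb4 ran through 43.7%, 35.8%, 20.2%, 9.97% and 2.06%, and Epha4 through 40.8%, 36.4%, 27.9%, 14.4% and 4.41%. Epha2 rose over the same bins from 28.4% through 33.4%, 51.6% and 66.9% to 71.2%.

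Efnb2 changed late. Its share was 15.5%, 19.1% and 23.5% in the first 3 bins, then 56.3% and 84.4%, and its mean went from 0.196 through 0.220, 0.302 and 0.868 to 1.85. Efnb1 was already above 0 in 53.1% of the cells of the first bin and reached 75.1% in the fourth. Efna1 had its lowest share in the second bin (24.6%) and its highest in the last (41.2%), with 38.4% in the first. The log2 ratio of the last over the first bin was 3.23 for Efnb2 (2.87 to 3.62), 2.07 for Epha2 (1.84 to 2.30), -3.34 for Ephb3 (-4.13 to -2.64), -3.52 for Epha4 (-4.39 to -2.76), -3.83 for Ephb2 (-4.81 to -2.99) and -4.67 for Ephb4 (-6.01 to -3.60). These were 2 genes higher and 4 lower by 2-fold, where 15.8% and 41.5% of 11325 genes were.

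Across the 1704 cells the Spearman correlation with the score was 0.543 for Efnb2, 0.382 for Epha2 and 0.149 for Efnb1, and -0.317, -0.322, -0.370 and -0.378 for Epha4, Ephb2, Ephb3 and Ephb4. These are descriptions over cells of 1 library that share its depth. Median genes per cell fell from 3420 in the first bin to 2831 in the last, and the median mitochondrial share was 9.35% and 13.3%. Their part in the trend was not tested. After each cell was thinned to 2000 corrected counts the shares of Ephb2 in the first and last bin were 9.09% and 1.47%, those of Ephb3 8.80% and 1.47%, and those of Efnb2 3.81% and 29.1%. Within cells at or below 10% mitochondrial values the means of Ephb3 over the 5 bins were 0.495, 0.186, 0.109, 0.0410 and 0.0303, with 33 cells in the last bin, and those of Efnb2 0.191, 0.209, 0.272, 0.803 and 1.88. Ephb2 was at 0.121 in the last of these bins.

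**Figure D2:**
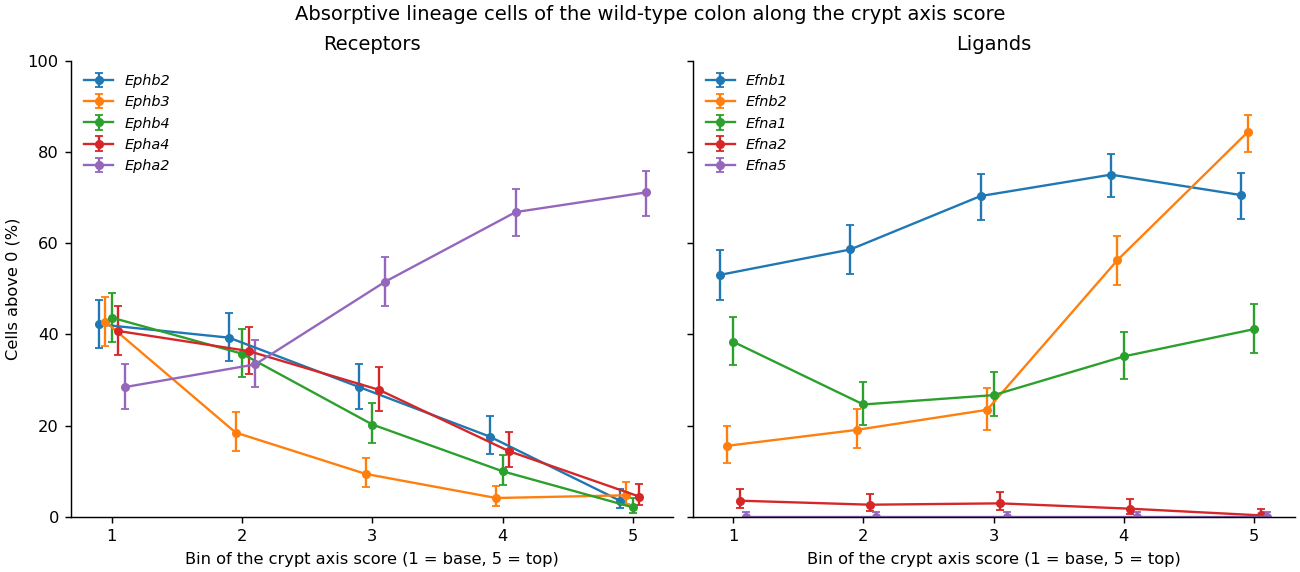
Share of cells with a value above 0 (%, with Clopper-Pearson 95% intervals) in 5 bins of the crypt axis score, for the receptors (left) and the ligands (right). The 1704 cells, titled absorptive lineage, are the epithelial cells outside the goblet-like and enteroendocrine-like classes, stem-like cells and unnamed clusters included. Ephb2, Ephb3, Ephb4 and Epha4 went from 40.8 to 43.7% in the first bin to 2.06 to 4.71% in the last, and Efnb2 went from 15.5 to 84.4%.

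Receptor and ephrin-B ligand were also counted in the same cell. Of the 682 crypt base cells, 152 had values above 0 for both Efnb1 and Ephb2, or 22.3% (19.2 to 25.6%). Efnb1 was above 0 in 53.9% of the crypt base cells with Ephb2 and in 60.8% of those without it. For Efnb2 and Ephb2 the share with both was 6.01% (4.35 to 8.07%) in crypt base and 5.54% (3.77 to 7.81%) in enterocyte-like cells. Ephb2 and Ephb3 were both above 0 in 11.3% of the crypt base cells and in 1 of the 542 enterocyte-like cells. The median cell of the epithelium had values for 3 of the 10 genes, and 4.08% of epithelial cells had none.

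The 2 enterocyte-like clusters were not alike. The 344 cells led by Emp1 averaged 3.12 for Epha2, 0.195 for Epha4 and 0.169 for Ephb2, and the 198 cells led by Fxyd4, with Saa1 among their leading genes, averaged 1.80, 0.0152 and 0.0455. Their intervals for the share of cells above 0 did not overlap for any of the 3 receptors (78.8 to 86.9% and 61.2 to 74.6% for Epha2). Ephb3 went the other way, at 0.0145 and 0.101, but few cells carried it, with values above 0 in 4.24% of all enterocyte-like cells. The cluster led by Reg3b, 102 cells without a class name, averaged 0.137 for Epha2. The other clusters outside the goblet-like and enteroendocrine-like classes averaged 0.518 to 3.12. The median mitochondrial share was 11.8% in the cluster led by Emp1, 12.9% in that led by Fxyd4 and 12.6% in that led by Reg3b. Only 83, 17 and 16 of their cells, in that order, lay within the mitochondrial limit used above. Within it Ephb2 and Epha4 no longer separated enterocyte-like from crypt base cells by 2-fold. The part of cell quality in these cluster differences was not tested.

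Between the clusters of goblet-like cells, which make mucus, receptor and ligand again ran in opposite directions. The study parts Muc2-positive goblet cells from Reg4-positive deep crypt secretory cells. The naming rule here gave the goblet-like name precedence over the deep crypt secretory list. The cluster led by B3gnt6 passed 6 of 10 goblet markers, and that led by Zg16 passed 8. Both passed the goblet list, so the deep crypt secretory list, though scored, could name neither. Whether the cluster led by B3gnt6 is of the deep crypt secretory type was therefore not decided. With 15 components a goblet-like cluster of 314 cells was led by Retnlb, a gene of the deep crypt secretory list, followed by B3gnt6. Ephb2 averaged 0.677 and Ephb3 0.568 in the 285 cells of the cluster led by B3gnt6, against 0.257 and 0.241 in the 307 cells led by Zg16. Efnb2 averaged 0.291 in the cluster led by B3gnt6 and 1.01 in that led by Zg16, and Efnb1 0.481 and 0.967. Shares of cells above 0 were 48.1% (42.1 to 54.0%) and 23.1% (18.5 to 28.3%) for Ephb2 and 23.2% (18.4 to 28.5%) and 55.7% (49.9 to 61.3%) for Efnb2. After thinning they were 13.7% and 5.54% for Ephb2 and 2.81% and 21.8% for Efnb2. Ephb4 averaged 0.291 and 0.270 and showed no such split. The crypt axis score, built for absorptive cells, was close in both clusters, at 0.0758 and 0.0426. Enteroendocrine-like cells, the hormone-producing cells, had the highest Ephb3 of all named classes at 0.655, with a share of 44.05% whose interval overlapped that of goblet-like cells (32.6%), and low Efnb2 at 0.167.

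**Figure D3:**
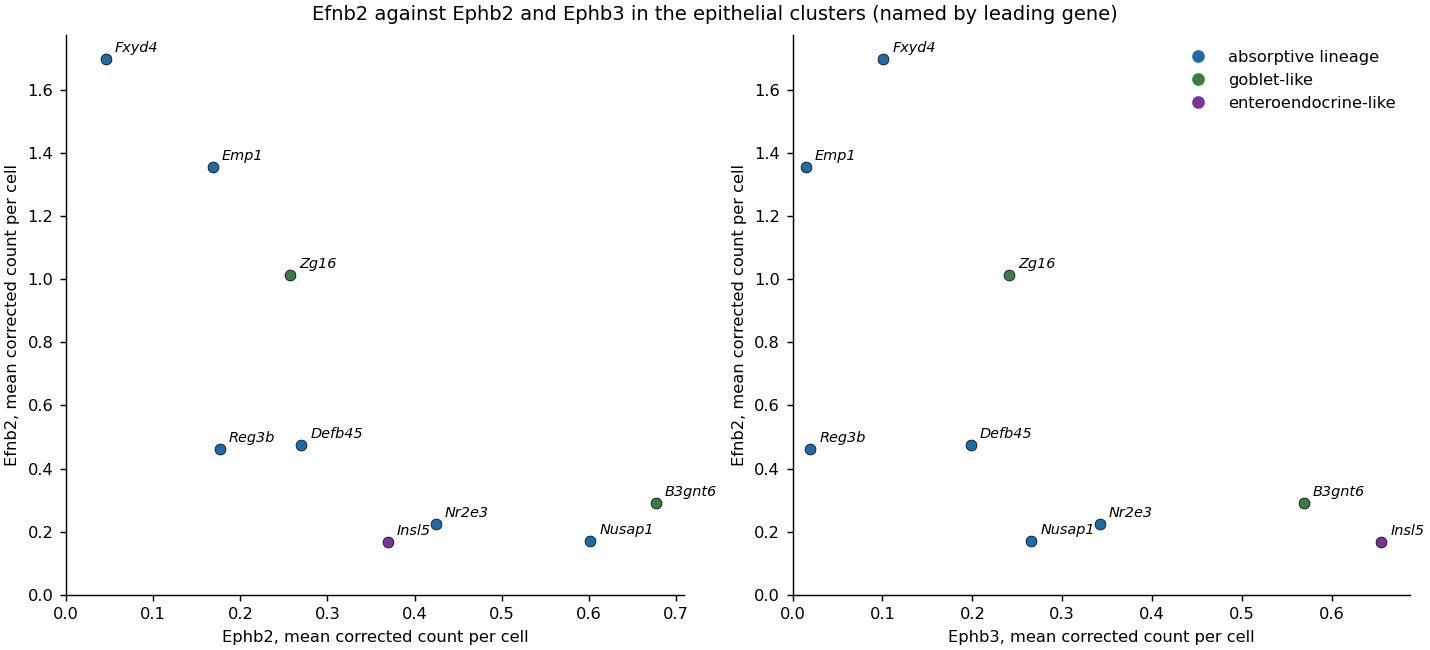
Mean corrected count per cell of Efnb2 (vertical) against Ephb2 (left) and Ephb3 (right) in the 9 epithelial clusters, labelled by leading gene and coloured by group. The group called absorptive lineage holds all clusters outside the goblet-like and enteroendocrine-like classes. The clusters led by Fxyd4 and Emp1 lay highest for Efnb2 (1.70 and 1.35) and low for Ephb2 (0.0455 and 0.169), the clusters led by B3gnt6 and Nusap1 the reverse (0.291 and 0.171 against 0.677 and 0.602).

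The 2380 epithelial cells were then set against the 2495 fibroblasts of the same library. Of the 10 genes, 6 were higher in the epithelium by 2-fold or more and 2 were lower, where 38.8% of 15271 genes were higher and 19.5% lower, and the median log2 ratio was 1.68 for the set and 0.56 for all genes. Epha2 was higher by 3.96 on the log2 scale (1.18 against 0.0758), Efna1 by 3.38 (0.375 against 0.0361), Ephb2 by 3.27 (0.343 against 0.0357), Epha4 by 2.47 (0.239 against 0.0433), Efnb1 by 2.24 (1.01 against 0.213) and Ephb4 by 1.12 (0.258 against 0.119). The ratio of Ephb4 fell inside 2-fold when cells were thinned (0.89) or class totals were pooled (0.95). Ephb3 (0.60) and Efnb2 (0.79) lay inside 2-fold. Efna2 (-2.60) and Efna5 (-8.36, counting interval -13.67 to -5.87, from 1 summed count in the epithelium and 344 in fibroblasts) were lower.

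Some low stromal levels stood near the yardstick for epithelial RNA. Epha2 in CBFs-like cells was at 3.79% of its epithelial level, where the epithelial marker list was at 2.35%, so no expression is read from it there. In CTFs-like cells Epha4 was at 41.5% and Efnb2 at 129%, where the marker list was at 3.08%, and Epha2 averaged 0.142 against 1.18 in the epithelium. Ephb3 was at 73.5% in CBFs-like cells, and Ephb2 at 0.731% in CTFs-like cells, below the list.

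Between the fibroblasts the question was whether crypt top and crypt bottom cells carry different members. Among fibroblasts Efnb2, Epha2 and Epha4 were highest in CTFs-like cells and Efna5 and Ephb2 in CBFs2-like cells, though most cells had no value for each. In the wild-type library 38.6% of CTFs-like cells were above 0 for Efnb2, 10.5% for Epha2 and 7.15% for Epha4. The reporter shares were 20.7%, 1.99% and 1.59%. Of CBFs2-like cells 35.5% were above 0 for Efna5 and 8.56% for Ephb2, and 17.9% and 4.35% in the reporter library. In the wild-type library Efnb2 averaged 0.856 over the 797 CTFs-like cells, 0.204 over CBFs1-like and 0.0802 over CBFs2-like cells, and 0.245, 0.0603 and 0.0188 in the reporter library. Epha4 averaged 0.0991, 0.0158 and 0.0196, and in the reporter library 0.0159, 0.00303 and 0.00471. Epha2 averaged 0.142, 0.0431 and 0.0481, and in the reporter library 0.0238, 0.00455 and 0.0106. Ephb2 was close to absent from CTFs-like cells, with 2 summed counts in 797 and 2 in 755 cells. The order of the 3 classes for Efnb2 was thus the same in both libraries, which were sorted from different mice with different kits.

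In the wild-type library, 3 of the 10 genes were higher in CTFs-like than in CBFs-like cells by 2-fold or more and 4 were lower, against 6.46% and 11.2% of 13042 genes. In the reporter library 3 were higher and 2 lower, against 9.25% and 7.24% of 12483 genes. The medians over the set were -0.40 and 0.39, and over all genes -0.06 and 0.25. The log2 ratio of Efnb2 was 2.39 (2.19 to 2.60) in the wild-type and 2.29 (1.98 to 2.59) in the reporter library. For Epha4 it was 2.54 (1.91 to 3.20) and 2.21 (0.93 to 3.49, from 12 against 12 summed counts), and for Epha2 1.66 (1.23 to 2.10) and 1.99 (0.99 to 2.96). Efna5 was lower in both, at -2.93 (-3.66 to -2.28) and -1.43 (-2.08 to -0.84). Ephb2 was lower too, at -4.35 (-7.42 to -2.46) and -3.02 (-6.09 to -1.12). Efna1 (-1.01) and Efna2 (-1.07) passed 2-fold narrowly in the wild-type library, not without its cells above 10% mitochondrial values (-0.56 and -0.83) and not in the reporter library (0.51 and -0.48), and the difference between libraries was not tested.

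The 755 CTFs-like cells of the reporter library joined 2 clusters. The 520 cells led by Bmp3 passed 10 of the 12 CTFs markers and averaged 0.335 for Efnb2 and 0.00769 for Efna5. The 235 cells led by Ptprr passed 6 and averaged 0.0468 and 0.0894, where CBFs1-like cells averaged 0.0603 and 0.0474. With 15 components a cluster of 209 cells led by Ptprr took the CBFs1-like name, so the class of these cells depended on the clustering. Without the cluster led by Ptprr the ratio of Efnb2 over CBFs-like cells was 2.74 and that of Efna5 -3.54, with 4 genes higher and 3 lower. Over all genes 946 were then higher and 1379 lower, in place of 1155 and 904. Of the 185 summed Efnb2 counts of the class, 174 lay in the cluster led by Bmp3.

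CBFs2-like cells differed from CBFs1-like cells most by Efna5. This ephrin-A ligand, known from axon guidance, averaged 0.497 in CBFs2-like and 0.0396 in CBFs1-like cells, with values above 0 in 35.5% (31.5 to 39.6%) and 3.52% (2.52 to 4.76%) of them, or 10.2% and 0.528% after thinning. In the reporter library it averaged 0.220 and 0.0474. The log2 ratio was 3.65 (3.19 to 4.14) in the wild-type and 2.22 (1.88 to 2.55) in the reporter library. Of the 2639 CBFs1-like cells of the reporter library, 1115 lay in a cluster led by Sbno2 and 532 in one led by Spock3. Sbno2 and Tnfaip3, leading genes of the first, were listed as genes of activated fibroblasts. Saa3, Cxcl5 and Cxcl9, leading genes of the second, were listed as genes of inflammatory fibroblasts. Without these clusters the ratio was 3.19. Ephb2 was higher in CBFs2-like cells in both, at 2.496 (1.79 to 3.25) and 1.90 (1.21 to 2.61), and Efnb2 lower in both, at -1.35 (-1.84 to -0.88) and -1.68 (-2.52 to -0.93). Efna2 was higher in the wild-type library (1.71, 1.37 to 2.04) and at -0.44 (-1.05 to 0.12) in the reporter library.

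The count was 3 higher and 1 lower by 2-fold in the wild-type library, where 7.96% of 12394 genes were higher and 6.63% lower. In the reporter library 3 of 9 genes with enough counts were higher and 1 lower, where 5.25% of 12030 genes were higher and 12.6% lower. The medians were 0.44 and -0.12 over the genes of the set with enough counts and 0.02 and -0.24 over all genes. The third gene in the reporter library was Epha2 (1.22), whose interval of -0.21 to 2.59 spans 0 and which was at 0.91 with 15 components. Ephb3 and Ephb4 lay inside 2-fold in every comparison between fibroblast classes, and Ephb3 averaged 0.128 to 0.260 in the wild-type and 0.0682 to 0.0874 in the reporter library.

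**Figure D4:**
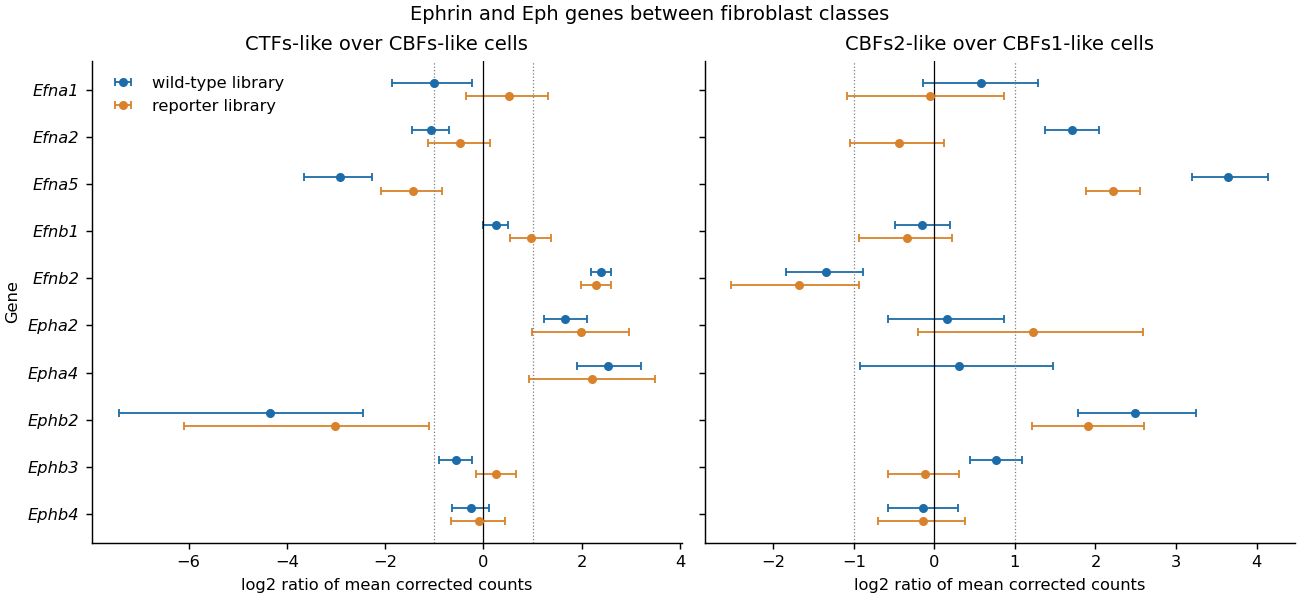
log2 ratio of mean corrected counts for CTFs-like over CBFs-like (left) and CBFs2-like over CBFs1-like cells (right), with 95% counting intervals, in the wild-type (blue) and reporter (orange) libraries. Dotted lines mark 2-fold. Efnb2 lay right of the line on the left (2.39 and 2.29) and Efna5 right of it on the right (3.65 and 2.22) in both libraries. Genes with fewer than 20 summed counts are left out.

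Blood endothelial-like cells held a combination of their own, ephrin-A1, ephrin-B2, EphA4 and EphB4, with almost no Ephb2 or Ephb3. Efna1 averaged 1.05 and was above 0 in 46.8% of the 592 cells, against 3.21% of fibroblasts, or 21.5% and 0.601% after thinning. Efnb2 averaged 1.08, Ephb4 0.554, Efnb1 0.465, Epha4 0.451 and Epha2 0.328. Ephb2 had 1 summed count in the 592 cells and Ephb3 had 5. Against the 2495 fibroblasts, 6 of the 10 genes were higher by 2-fold or more and 3 lower, where 12.2% of 13603 genes were higher and 24.5% lower, and the medians were 1.31 and -0.26. The log2 ratio was 4.87 for Efna1 (4.55 to 5.20), 3.38 for Epha4 (3.05 to 3.72), 2.22 for Ephb4 (1.99 to 2.45), 2.11 for Epha2 (1.82 to 2.41), 1.496 for Efnb2 (1.35 to 1.64) and 1.13 for Efnb1 (0.91 to 1.34). Ephb2 (-4.40), Ephb3 (-4.32) and Efna5 (-3.77) were lower, Ephb2 not by 2-fold after thinning (-0.66, with the floor of 3 counts). The endothelial cells were the shallower group, with a median of 2052 genes against 2634, and the epithelial marker list stood at 5.87% of its epithelial level in them, while Efna1 was at 281%, Ephb4 at 214%, Epha4 at 189% and Efnb2 at 164%.

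Efnb2 and Ephb4 did not divide these cells into separate sets. Of the 184 endothelial cells with Ephb4, 44.6% also had Efnb2, and of the cells without Ephb4 46.6% had it. The 494 cells led by Esm1 averaged 1.22 for Efnb2 and 0.569 for Ephb4, and the 98 cells led by Selp, a gene of venules, averaged 0.418 and 0.480. The Efnb2 shares were 48.4% (43.9 to 52.9%) and 33.7% (24.4 to 43.9%), those of Ephb4 30.4% (26.3 to 34.6%) and 34.7% (25.4 to 45.0%). Epha4 averaged 0.498 and 0.214. Lymphatic endothelial-like cells, 139 in number, had Ephb4 at 0.288, Efna1 at 0.281 and Efnb2 at 0.259, but this class also held fibroblast markers at a summed level of 111.3 against 26.2 in the blood endothelial-like cells. At the higher clustering resolution 45 cells took the lymphatic name and a cluster of 156 cells led by Upk3b took none, so the means of the 139 cells are not levels of lymphatic cells alone.

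Other stromal classes each held a few members. Pericyte-like cells, the mural cells of small vessels, had the highest Efna2 of all classes (0.475, above 0 in 29.7%), with Epha2 at 0.797, Efnb1 at 0.551 and Efnb2 at 0.263. None of the 118 had a value for Ephb2 or Efna5, which leaves an upper limit of 3.08% for each share. The interval of the Efna2 share overlapped that of CBFs2-like cells (24.4%). Glia-like cells had Ephb2 at 0.397 (above 0 in 29.5% of 78 cells), Efna2 at 0.282 and Epha2 at 0.256. Smooth muscle-like cells were the poorest of the larger classes, with all 10 genes between 0.00738 and 0.101 and none above 0 in 69.5% of cells.

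Of 12 other ephrin and Eph genes, 9 were in the wild-type table and 7 in the reporter table, and 7 reached a class mean of 0.1 in the wild-type library. Efna4, a ligand of EphA receptors, followed the crypt base, with 0.461 in stem-like, 0.299 in transit-amplifying-like and 0.0554 in enterocyte-like cells (log2 ratio -2.89 to the crypt base). Ephb6, a receptor without kinase activity, had the reverse pattern, with 0.109 in enterocyte-like cells and 0.205 in glia-like cells. Epha1 was even along the crypt, from 0.123 in transit-amplifying-like to 0.206 in stem-like cells, and was 0.00967 in CBFs1-like cells. Epha7 was highest in glia-like cells (0.218) and averaged 0.0950 in CBFs1-like and 0.00376 in CTFs-like cells. Efnb3 (0.169) and Epha3 (0.102) were highest in pericyte-like cells, and Efna3 (0.104) in stem-like cells. By 2-fold, 1 of the 5 genes with enough counts was higher and 3 lower in enterocyte-like than in crypt base cells, and 3 were higher and 3 lower of 8 in epithelium over fibroblasts. In CTFs-like over CBFs-like cells 0 were higher and 4 lower of 7 in the wild-type library, and 1 was higher and 3 lower of 5 in the reporter library. In CBFs2-like over CBFs1-like cells 3 were higher and 1 lower of 7, and 1 was higher and 4 lower of 5. In blood endothelial-like cells over fibroblasts 2 were higher and 4 lower of 9. The shares of all genes past 2-fold, higher and lower, were 11.9% and 35.3%, 38.8% and 19.5%, 6.46% and 11.2%, 9.25% and 7.24%, 7.96% and 6.63%, 5.25% and 12.6%, and 12.2% and 24.5% in the order of these comparisons. With 5 to 9 genes each, nothing is read from the counts.

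Genes known to act on Eph and ephrin signals, 39 in a list of kinases, adaptors, GTPase regulators and scaffolds, were counted in the same way. In enterocyte-like over crypt base cells 4 were higher and 7 lower of 35 with enough counts, against 11.9% and 35.3% of all genes. The share higher, 11.4%, was close to that of all genes, and the share lower was below it. Tiam1, an exchange factor of Rac (-3.41), Abl2, a kinase (2.53), and Vav3, another exchange factor (-2.27), had the largest ratios. In epithelium over fibroblasts 12 were higher and 7 lower of 39 (30.8% and 17.9%, against 38.8% and 19.5% of all genes), with Grb10 (-6.52), Grb7 (5.25) and Fyn (-5.14) as the largest, all of them adaptors or kinases. In blood endothelial-like cells 8 were higher and 7 lower of 39 (20.5% and 17.9%, against 12.2% and 24.5%), led by Arhgef15 (6.56), an exchange factor known from vessels, Sh2d3c (4.67) and Chn2 (4.06).

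Between the fibroblast classes, 3 of the list were higher and 6 lower of 39 in CTFs-like cells of the wild-type library, and 1 higher and 3 lower of 33 in the reporter library. These are 7.69% and 15.4%, against 6.46% and 11.2% of all genes, and 3.03% and 9.09%, against 9.25% and 7.24%. Rgs3, which can bind ephrin-B, was higher (1.53 and 1.80), and Fyn, a kinase downstream of ephrins, lower (-2.09 and -1.48) in both. Arhgef15 (1.62) was among the largest in the wild-type and Tiam1 (-1.42) in the reporter library. In CBFs2-like over CBFs1-like cells 5 were higher and 2 lower of 36, and 2 higher and 1 lower of 33, or 13.9% and 5.56%, against 7.96% and 6.63% of all genes, and 6.06% and 3.03%, against 5.25% and 12.6%. Vav3 (2.71 and 3.51) and Tiam1 (1.82 and 1.87) were higher in both, Ngef (2.34) was the other of the largest in the wild-type library and Rgs3 (-1.56) in the reporter library.

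The genes whose level over the 14 named classes was most like that of a member were found by Pearson correlation of log2 means, among 6874 genes, or 6875 for Efna5, with a class mean of at least 0.5. The classes share 1 library. Ephb2 was most like Deptor (0.931), Kif21a (0.909) and Carnmt1 (0.903), and Ephb3 like Gmppa (0.894), Cops2 (0.877) and Tsr1 (0.868). Ephb4 was most like Hyal2 (0.893), Yes1 (0.877) and Smim10l1 (0.845). Efnb1 was most like a member of the set, Epha2 (0.934), then Larp4 (0.911) and Sowahc (0.906). Efnb2 had no close match, with Leng9 (0.797), Ralb (0.769) and F11r (0.764). Efna5 was most like C3 (0.954), Cilp (0.918) and Gfpt2 (0.918), all highest in CBFs2-like cells. C3 and Cilp are among the markers that named this class, so their place there follows from the naming. Ephb2 and Ephb3 correlated at 0.624 with each other and Ephb2 and Efnb2 at -0.156.

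By position on GRCm38, Ephb2 lies on chromosome 4 from 136647539 to 136835988 and Epha2 on the same chromosome from 141301240 to 141329384. Ephb3 lies on chromosome 16 from 21204755 to 21223305, Ephb4 on chromosome 5 from 137350109 to 137378669 and Epha4 on chromosome 1 from 77367185 to 77515088. Efnb2 lies on chromosome 8 from 8617434 to 8661242, Efnb1 on chromosome X from 99136130 to 99148991, Efna1 on chromosome 3 from 89271733 to 89281142, Efna2 on chromosome 10 from 80179482 to 80190010 and Efna5 on chromosome 17 from 62604184 to 62881317. Ephb4 overlaps Zan on the opposite strand, and whether counting used strand is not given in the sources used here, so a part of its counts could belong to Zan. On their own strand Efnb2 overlaps 3 genes annotated as still to be experimentally checked, E230020D15Rik, Gm45073 and Gm45074, and Epha4 overlaps the miRNA gene Mir6352, and how shared reads were assigned is not given in the sources used here.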

How the data were processed

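Single-cell RNA of the 2 libraries was aligned to mm10 and counted by the authors with Cell Ranger, then filtered and corrected with SCTransform in Seurat 3.1 under R 3.6.2. The score values as deposited are whole numbers, the counts after correction to a common depth, and the natural log values as deposited by the authors are ln(1 + x) of those numbers, which was read from the values. The depth sequenced cannot be recovered, no count model was used, and a value above 0 need not stem from a molecule of that cell.

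With Seurat 5.3.0 (R 4.3.3), clusters were made from the log values of 3000 variable features less the family, 30 components and resolutions of 0.45, 0.3 and, for the epithelium, 0.5. A cluster took a name where a marker list averaged a log2 fold of 1 over other cells with at least 3 markers and 50% of those measured past 2-fold in 10% of cells. This scoring rule was set after the clusters were seen. A cluster was called epithelial where the list of any epithelial cell type passed. Fibroblast clusters still without a name were scored in the same way against the fibroblasts already named. Clusters holding markers of several compartments were left out, as was a cluster of 486 cells led by Hbb-bt and Sh2d6. Scrublet in scanpy 1.11.5 marked 5 and 4 cells and had not worked. A single barcode was shared by the libraries.

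Ratios used genes with at least 20 summed counts, with a floor of 3 counts for a class at 0 and exact intervals. Shares have Clopper-Pearson 95% intervals. Named genes were all members, family genes with a class mean of 0.1, the 3 pathway genes of largest ratio and the 3 genes most like a member. Members and lists were chosen with earlier results of these data known. Ratios were tested on simulated data. Positions are from GENCODE mouse M21. Python 3.11.15, numpy 2.4.6, scipy 1.17.1 and matplotlib 3.10.9 were used.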

Additional observations from a re-analysis of the deposited data

How the results depend on the processing

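Each count of members past 2-fold was recomputed with other clusterings, without doublets or cells above 10% mitochondrial values, with cells thinned to 2000, with pooled totals and with other minimum counts, and the crypt axis with 4 other scores or bins. Of 140 such counts 133 stayed within 1.5 times. Members lower in enterocyte-like than crypt base cells were 2 in place of 4 without cells above 10% mitochondrial values. Members lower in CTFs-like than CBFs-like cells of the wild-type library were 2 in place of 4 without those cells, with thinning, and with a minimum of 100 counts. With that minimum, the reporter library had 1 member higher in CTFs-like cells in place of 3 and 1 lower in place of 2, and 1 higher in CBFs2-like than CBFs1-like cells in place of 3, since fewer genes were compared. The cause of the other changes was not tested. Of 425 recomputed values of the 49 ratios past 2-fold, 425 had the same sign and 412 stayed past 2-fold. A part of these values could not move. A changed minimum count leaves a ratio as it is, and no reporter cell was above 10% mitochondrial values (highest 9.945%). Leaving out doublets removed very few cells. Leaving out the reporter cluster led by Ptprr, or those led by Sbno2 and Spock3, was chosen after seeing the data. Without the latter pair Efna5 in CBFs2-like over CBFs1-like cells was at 3.19. Over all genes, 17 of 132 counts moved by more than 1.5 times, 14 of them with a changed minimum. The others were a mitochondrial limit of 10% (2830 lower in enterocyte-like cells in place of 4301) and, for genes lower in CTFs-like cells of the reporter library, 15 components (1457 in place of 904) and the cluster led by Ptprr left out (1379).

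No paired analysis was possible because each library was 1 sample. The spread between mice is therefore not known, and the depth sequenced cannot be read from corrected counts. Thinning moved the share of cells above 0 outside its interval for 17 of 20 values, each a gene in its highest class of a library.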

Other observations

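Clusters that carried markers of more than 1 compartment or no name held members too. The 101 cells led by Notch3 (median 3849 genes detected), which had summed levels of 75.3 for the blood endothelial and 63.3 for the smooth muscle markers, averaged 1.53 for Efnb2, 1.10 for Efna2, 0.970 for Efna1 and 0.931 for Epha4. The 486 cells led by Hbb-bt and Sh2d6 averaged 0.568 for Epha2, 0.399 for Efnb1 and 0.333 for Efnb2 with a median of 1741 genes per cell.

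The 52 epithelial cells of the reporter library, a library sorted for GFP, averaged 0.269 for Efnb1, 0.192 for Efna1 and 0.173 for Epha2. Fibroblast markers stood at 33.3% of the fibroblast level in them.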
